A study of Homo sapiens with 21 samples.

Results

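The 9 genes described here, STAT5A, STAT5B, JAK2, PIM1, PIM2, CISH, SOCS1, SOCS2 and SOCS3, encode the transcription factor STAT5 in its A and B forms, a kinase that activates it, and genes that STAT5 is known to switch on. They were taken by symbol from the gene count tables, which held 28008 genes in all, and each was found in both tables. Messenger RNA was sequenced in 21 libraries of human leukaemia cell lines, 3 libraries in each of 7 groups, over 2 sequencing batches. Batch 1 held OCI-AML3 cells of genotype Res treated with StAMP and labelled as biological replicate 1 ("resistant 1" here), untreated parental K562 cells, OCI-AML3 cells of genotype WT with DMSO ("vehicle"), and untreated parental OCI-AML3 cells. Batch 2 held a further biological replicate of the resistant cells ("resistant 2"), resistant 1 again, and vehicle, with the same genotypes and agents. OCI-AML3 is an acute myeloid leukaemia line, and K562 an erythroleukaemia line that came from the blast crisis of a chronic myeloid leukaemia. StAMP is not spelled out in the labels, and the title of the series speaks of stapled peptides against cancer cells. The sources used here do not give the dose, the length of treatment, how resistant cells were selected or whether they are 1 clone.

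STAT5A and STAT5B are closely related proteins that wait in the cytoplasm until a tyrosine kinase phosphorylates them, after which they pair, enter the nucleus and bind DNA. In blood cells the usual kinase is JAK2, which sits on the receptors for erythropoietin, thrombopoietin, growth hormone and interleukin-3. K562 carries the BCR::ABL1 fusion kinase, which is known to phosphorylate STAT5 without a cytokine. Among the genes that active STAT5 induces are CISH and SOCS1 to SOCS3, whose products damp the receptor and JAK, and the survival kinases PIM1 and PIM2. The libraries measured RNA and not phosphorylation.

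A library held 14.1 to 21.1 M (mega) counts in batch 1 and 30.7 to 51.3 M counts in batch 2. The 9 libraries labelled resistant did not look like their labelled line. Across 10785 genes the Pearson correlation of log2 levels was 0.978 to 0.98 between resistant 1 and K562 in batch 1, against 0.507 to 0.509 between resistant 1 and vehicle. For the resistant libraries of batch 2 the correlation was 0.901 to 0.94 with the K562 libraries of batch 1, against 0.553 to 0.577 with the vehicle libraries sequenced beside them. The summed level of 10 erythroid marker genes was 966 to 3380 counts-per-million units (CPM) in resistant libraries and 3410 to 3540 CPM in K562, against 12.2 to 20.8 CPM in vehicle and parental OCI-AML3 libraries. For 11 myeloid markers the sums were 86.9 to 207 CPM in resistant libraries and 40.9 to 45.4 CPM in K562. In vehicle and parental OCI-AML3 they were 2120 to 2740 CPM. In each comparison of resistant with vehicle, 10 of the 11 were called lower and 1 higher (adjusted p under 0.05). Over all genes, 42.1% were called lower in batch 1, and 35.8% in resistant 1 and 35.9% in resistant 2 of batch 2. HOXA9 and HOXA10 had 0 counts in every resistant library, and HOXA9 and MPO in every K562 library. In resistant 1 against K562, 4 could be tested and all 4 were called higher, where 59.8% of all genes were called. A list of 6 lymphocyte markers summed to 4.4 to 17.9 CPM in resistant libraries and 10.1 to 11.8 CPM in K562, against 182 to 268 CPM in vehicle and parental OCI-AML3. In the vehicle and parental OCI-AML3 groups 5 of the 6 averaged under 1 CPM, so those sums rest on 1 gene. Most of those tested went the other way. In resistant 1 against vehicle, 2 were higher and 1 lower in batch 1, and 3 higher and 1 lower in batch 2 (adjusted p under 0.05). Over all genes, 44% were higher in batch 1 and 39.9% in batch 2. A list of 5 fibroblast and epithelial markers summed to 49.8 to 77.7 CPM in resistant libraries and 113 to 119 CPM in K562, against 0.0428 to 4.92 CPM in vehicle and parental OCI-AML3. "Resistant" below therefore means a library labelled so, and a difference from vehicle that goes with the agent cannot be told apart from one that goes with the K562 profile.

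All 9 genes were higher in libraries labelled resistant than in vehicle, in both batches and in both resistant biological replicates, and the groups' libraries did not overlap for any of them. Such a lack of overlap was found for 86.7% of all genes tested in resistant 1 against vehicle of batch 1, and for 79.5% in resistant 1 and 78.5% in resistant 2 against vehicle of batch 2. STAT5A and PIM1 stood highest against vehicle, with 192-fold and 78.8-fold differences in batch 1, SOCS2 followed at 46.2-fold, and JAK2 and STAT5B were 4.26-fold and 4.5-fold higher. By edgeR's quasi-likelihood test adjusted over all genes (a gene is called below an adjusted p of 0.05), 9 of 9 were called higher in resistant 1 of batch 1, where 44% of all 14505 genes tested were called higher and 42.1% lower. A background of that size makes the bare count of calls uninformative, so the size of the differences is given beside it. At least 4-fold higher (log2 fold change of 2 or more) were 9 of 9 members, against 13.5% of all genes, and at least 16-fold higher (log2 fold change of 4 or more) were 3 of 9, against 8.06%. The median log2 fold change was 3.02 over the 9 members and 0.02 over all genes. The 9 genes were chosen with earlier results of these data known, so contrasts with all genes are a description here and below. In batch 2, 9 of 9 were called higher in resistant 1, where 39.9% of 15218 genes were, and 9 of 9 in resistant 2, where 40.2% were. All 9 in resistant 1 and 8 in resistant 2 passed 4-fold, against 18.3% and 18.7% of all genes higher by that much. Both batch 2 comparisons use the same 3 vehicle libraries, so their likeness is no separate observation. In bulk RNA, fewer cells of a type and less RNA per cell cannot be told apart. Nothing in the labels says that libraries of a group came from separate cultures, so the spread behind each p-value is that between libraries and may be technical.

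**Figure D1:**
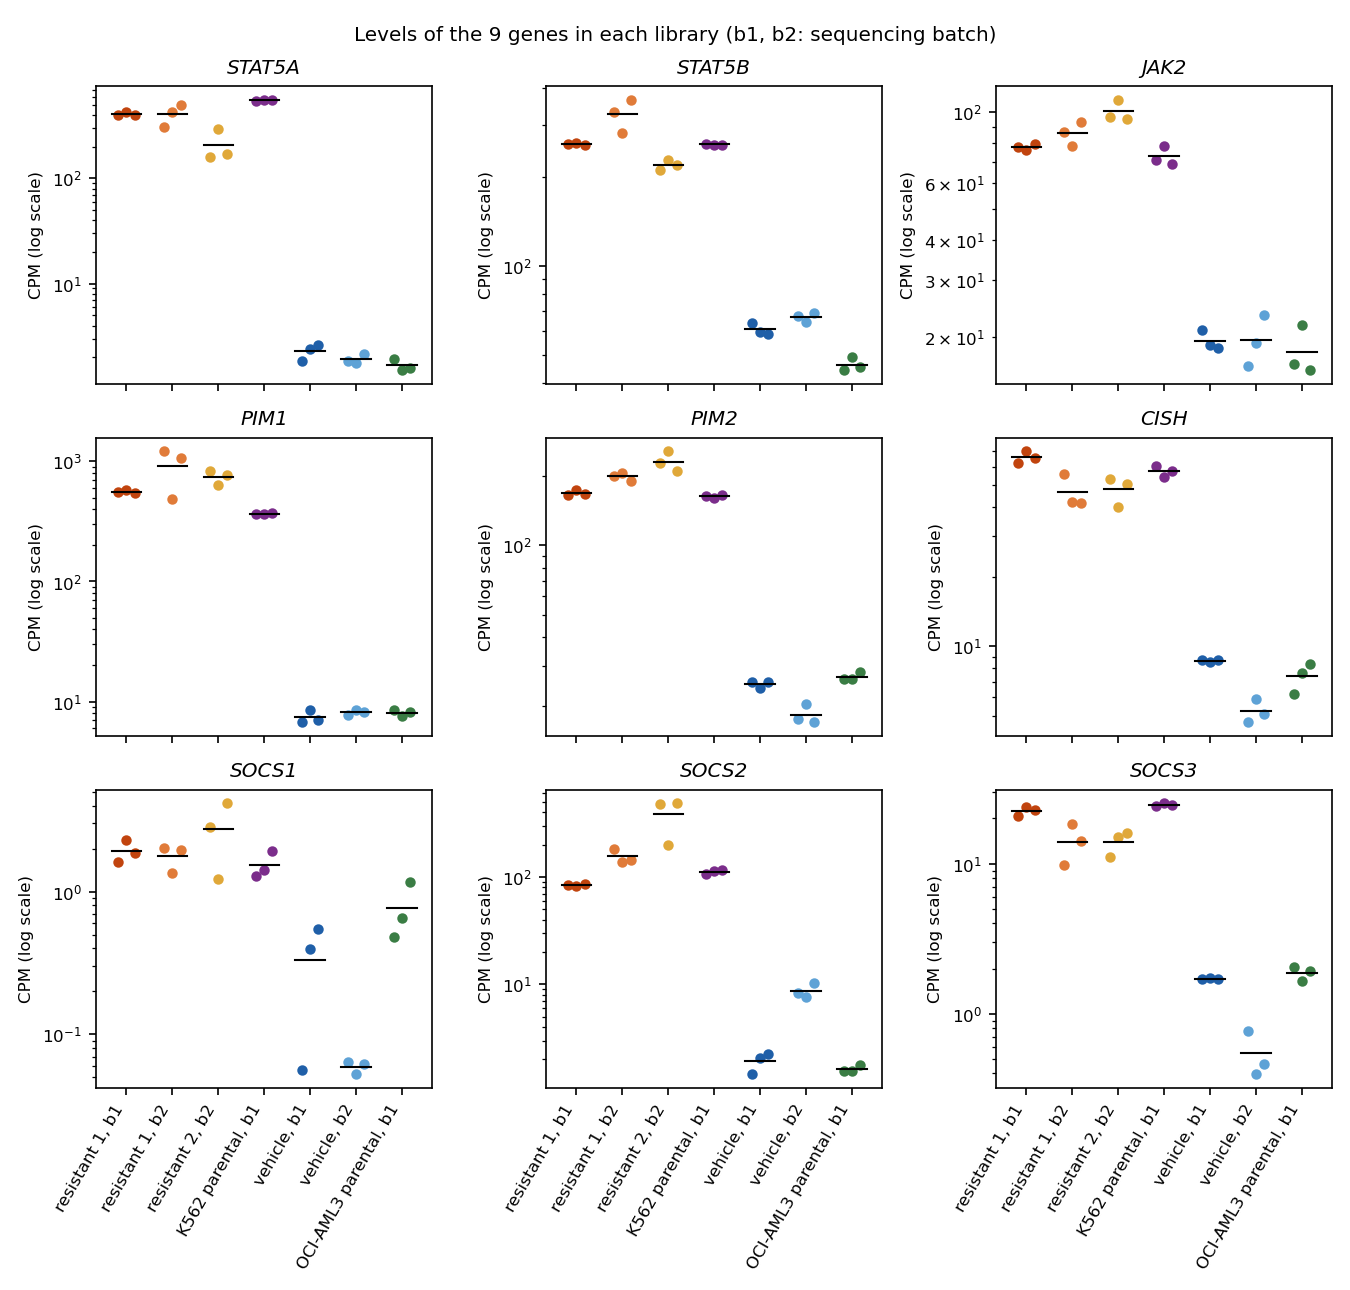
Level of each of the 9 genes in every library, in counts-per-million units (CPM) of the TMM-scaled library size on a log axis, with 1 panel per gene. Points are the 3 libraries of a group, lines are group means, and b1 and b2 are the sequencing batches. In every panel the resistant and K562 libraries lie above the vehicle and parental OCI-AML3 libraries of both batches, most widely for STAT5A and PIM1 and most narrowly for SOCS1.

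The kinase JAK2, which is on chromosome 9 of the hg38 build at 4984390 to 5129948 on the plus strand, had 78, 76 and 79.5 CPM in resistant 1 of batch 1, against 20.9, 18.8 and 18.4 CPM in vehicle. Batch 2 gave 86.8, 78.6 and 92.9 CPM in resistant 1 and 96.7, 109 and 95.4 CPM in resistant 2, against 16.2, 19.1 and 23.4 CPM in vehicle. Every resistant library was above every vehicle library, and the vehicle libraries of both batches were at about the same level. The log2 fold change was 2.09 ± 0.08 (SE; adjusted p = 1.7e-18) in batch 1, and 2.13 ± 0.14 in resistant 1 and 2.35 ± 0.14 in resistant 2 of batch 2. JAK2 therefore had the narrowest difference from vehicle of the 9 genes in resistant 1, at about the level of STAT5B.

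STAT5A and STAT5B lie beside each other on chromosome 17. STAT5B runs from 42199176 to 42288633 on the minus strand and STAT5A from 42287547 to 42311943 on the plus strand, so that their annotated starts share 1087 bases. STAT5A had 404, 429 and 399.9 CPM in resistant 1 of batch 1, against 1.86, 2.38 and 2.60 CPM in vehicle. In the libraries of batch 2 STAT5A had 311, 426 and 497 CPM in resistant 1 and 161, 297 and 172 CPM in resistant 2, against 1.86, 1.77 and 2.16 CPM in vehicle. STAT5A was thus at a few CPM in every vehicle library and at 161 CPM or more in every resistant library. Log2 fold changes of STAT5A were 7.58 ± 0.08 (SE; adjusted p = 4.65e-31) in batch 1, and 7.73 ± 0.3 in resistant 1 and 6.76 ± 0.29 in resistant 2 of batch 2. In batch 1, 4.12% of all genes tested had a higher fold change than STAT5A.

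STAT5B was present at a clear level in all 7 groups and differed far less. It had 258, 261 and 257 CPM in resistant 1 of batch 1, against 64.2, 59.6 and 58.8 CPM in vehicle, and the log2 fold change was 2.17 ± 0.05 (SE; adjusted p = 1.72e-23). Batch 2 gave means of 325 ± 42.5 CPM in resistant 1 and 219 ± 8.5 CPM in resistant 2, against 67.1 ± 2.39 CPM in vehicle (SD, n = 3 each), and log2 fold changes of 2.27 ± 0.12 and 1.7 ± 0.11.

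With levels divided by the length of each gene's merged exons, the balance between the STAT5 paralogs was on opposite sides of 1 in the 2 kinds of library. The ratio of STAT5A to STAT5B in CPM per kb was 3.02 ± 0.092 in resistant 1 of batch 1, against 0.0716 ± 0.015 in vehicle (SD, n = 3 each). In batch 2 it was 2.42 ± 0.563 in resistant 1 and 1.8 ± 0.58 in resistant 2, against 0.0545 ± 0.00402 in vehicle, and it was 4.07 ± 0.0846 in K562, against 0.0688 ± 0.0124 in parental OCI-AML3. All 12 resistant and K562 libraries lay between 1.45 and 4.15 and all 9 others between 0.052 and 0.084, and the side of 1 was the same with the longest transcript as length. The paralogs are alike in sequence and their starts overlap, and the sources used here give neither the handling of shared reads nor the strand setting of the counting, so the split between them carries an error that the replicate SD does not show.

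**Figure D2:**
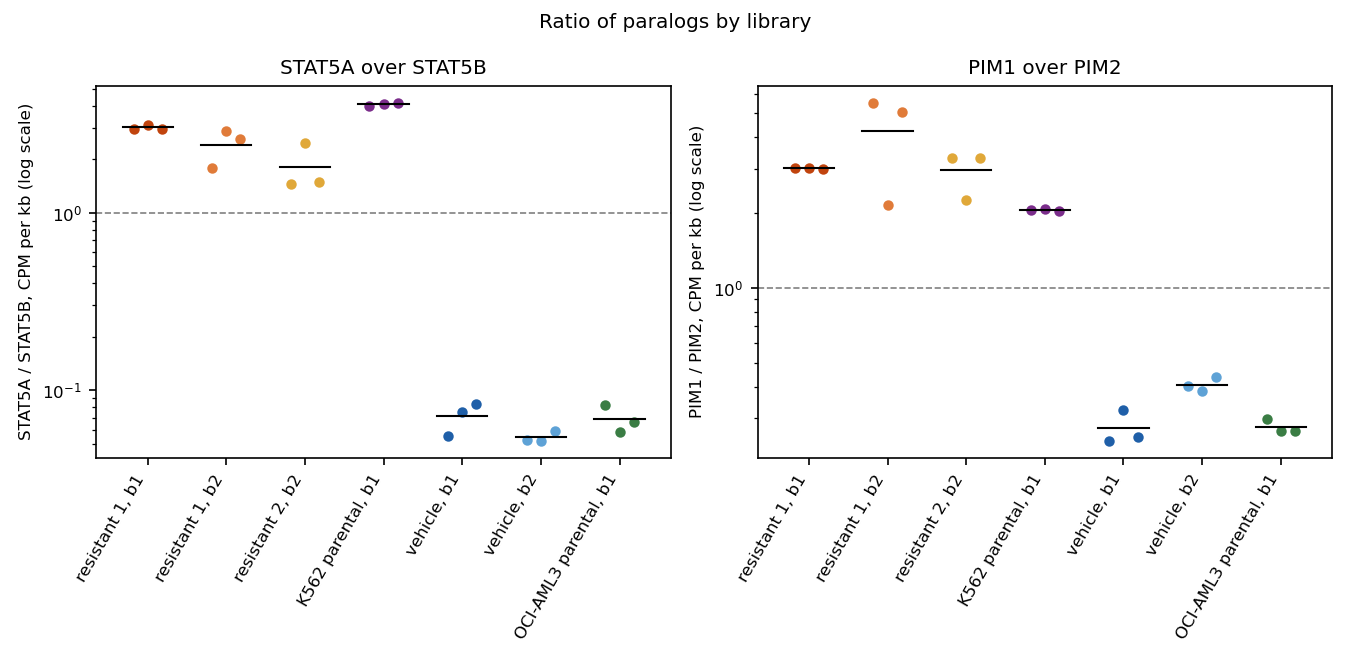
Ratio of STAT5A to STAT5B (left) and of PIM1 to PIM2 (right) in each library, from CPM divided by merged exon length in kb, on log axes with a dashed line at equal levels. Points are libraries and lines are means of 3. Every resistant and K562 library lies above the line and every vehicle and parental OCI-AML3 library below it, in both panels.

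The gene next to STAT5A, 1380 bases beyond its end, is STAT3, a STAT best known downstream of the interleukin-6 family. It too was higher, at 317 ± 5.84 CPM in resistant 1 of batch 1 against 98.8 ± 6.19 CPM in vehicle (SD, n = 3 each), 1.77 ± 0.06 higher on the log2 scale (SE; adjusted p = 1.02e-20). All 3 STAT genes of this stretch were therefore higher in resistant libraries, and STAT3 and STAT5B were closer to each other in fold change than either was to STAT5A.

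PIM1 is a serine/threonine kinase that needs no phosphorylation to be active, so its activity follows its amount, and it is a classical STAT5 target in blood cells. It lies on chromosome 6 at 37170152 to 37175428. PIM1 had 551, 575 and 547 CPM in resistant 1 of batch 1, against 6.76, 8.53 and 7.06 CPM in vehicle. In batch 2 it had 1208, 484 and 1067 CPM in resistant 1 and 827, 629.6 and 763 CPM in resistant 2, against 7.79, 8.55 and 8.15 CPM in vehicle. The vehicle libraries of both batches were within a narrow band, while the resistant 1 libraries of batch 2 were spread widely, with library 2 the lowest. The log2 fold changes were 6.3 ± 0.07 (SE; adjusted p = 5e-31) in batch 1, and 6.81 ± 0.34 in resistant 1 and 6.49 ± 0.33 in resistant 2 of batch 2.

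PIM2, a related kinase encoded on the X chromosome at 48913182 to 48919024, is known to promote survival and protein synthesis in leukaemia cells. Its means were 169 ± 4.11 CPM in resistant 1 of batch 1 against 25 ± 0.802 CPM in vehicle, and in batch 2 they were 199 ± 7.66 CPM in resistant 1 and 231 ± 22.8 CPM in resistant 2 against 18.3 ± 1.75 CPM in vehicle (SD, n = 3 each). The log2 fold changes were 2.84 ± 0.06 (SE; adjusted p = 2.72e-25), 3.43 ± 0.12 and 3.64 ± 0.12. Per kb, the PIM1 to PIM2 ratio was 3.01 ± 0.0178 in resistant 1 of batch 1 against 0.273 ± 0.0438 in vehicle, and 4.24 ± 1.84 in resistant 1 and 2.95 ± 0.615 in resistant 2 of batch 2 against 0.407 ± 0.0266 in vehicle. It was 2.05 ± 0.0233 in K562 and 0.275 ± 0.0178 in parental OCI-AML3. PIM2 was thus the more abundant of the pair in vehicle and parental OCI-AML3 libraries, and PIM1 in resistant and K562 libraries. The related kinase gene PIM3, looked up after the values of the others were seen, went the other way in batch 1, with 23 ± 1.4 CPM in resistant 1 against 51.6 ± 2.53 CPM in vehicle, or -1.08 ± 0.07 on the log2 scale (SE; adjusted p = 3.29e-14). In batch 2 PIM3 gave -0.16 ± 0.19 (adjusted p = 0.451) in resistant 1 and -0.52 ± 0.19 (adjusted p = 0.0192) in resistant 2.

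CISH encodes an SH2 protein that binds activated cytokine receptors and is among the most direct readouts of STAT5 activity in blood cells. It lies on chromosome 3 at 50606489 to 50611774 on the minus strand, and it overlaps MAPKAPK3 on the other strand. The bases before its annotated start, from the RefSeq table of GRCh38.p14, are shown because they hold 4 matches to the STAT5 motif TTCNNNGAA, which reads alike on both strands. The stretch is chr3:50611775-50612024 on the minus strand, and the capitals mark the TTC and GAA of each match.
CISH promoter: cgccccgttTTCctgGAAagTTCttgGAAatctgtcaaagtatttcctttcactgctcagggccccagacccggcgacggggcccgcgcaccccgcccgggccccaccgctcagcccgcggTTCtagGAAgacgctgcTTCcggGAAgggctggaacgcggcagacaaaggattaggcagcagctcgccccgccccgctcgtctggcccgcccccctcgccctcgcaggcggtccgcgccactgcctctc

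The matches fall in 2 pairs, TTCCTGGAA at -241 to -233 and TTCTTGGAA at -230 to -222 from the gene start, then TTCTAGGAA at -129 to -121 and TTCCGGGAA at -112 to -104. Of 35116 promoter windows of 300 bases in the table, 7.66% held at least 1 match and 0.0199%, or 7 windows of 6 genes, held 4. The table had windows for 8 of the 9 genes, 14 in all, and the CISH window was the 1 with a match. A match of letters is a description of the window and says nothing of whether a protein binds there.

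CISH had 62.2, 69.7 and 65.4 CPM in resistant 1 of batch 1, against 8.68, 8.53 and 8.70 CPM in vehicle. Batch 2 gave 55.9, 42.3 and 41.9 CPM in resistant 1 and 53.2, 40.1 and 50.3 CPM in resistant 2, against 4.69, 5.91 and 5.09 CPM in vehicle. Resistant and vehicle libraries were far apart in both batches, and both kinds were lower in batch 2 than in batch 1. The log2 fold changes were 3.02 ± 0.09 (SE; adjusted p = 3.8e-22) in batch 1, and 3.15 ± 0.17 and 3.18 ± 0.17 in resistant 1 and resistant 2 of batch 2.

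SOCS2, which is known above all as the brake on growth hormone signalling, lies on chromosome 12 at 93569814 to 93583487, with its antisense gene SOCS2-AS1 across it. It had 83.5, 83 and 85.7 CPM in resistant 1 of batch 1, against 1.46, 2.08 and 2.26 CPM in vehicle. In batch 2 it had 183, 137 and 145 CPM in resistant 1 and 481, 197 and 482 CPM in resistant 2, against 8.39, 7.60 and 10.2 CPM in vehicle. Every resistant library exceeded every vehicle library, and batch 2 libraries were higher than batch 1 libraries in vehicle as well as in resistant 1. The log2 fold changes were 5.53 ± 0.1 (SE; adjusted p = 2.29e-26), 4.14 ± 0.33 and 5.46 ± 0.35.

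SOCS3, the main inhibitor of gp130 and granulocyte colony-stimulating factor receptor signalling, lies on the same chromosome as the STAT5 genes, at 78356778 to 78360077. It averaged 22.4 ± 1.55 CPM in resistant 1 of batch 1 against 1.71 ± 0.022 CPM in vehicle, and in batch 2 14 ± 4.28 CPM in resistant 1 and 14 ± 2.62 CPM in resistant 2 against 0.543 ± 0.2 CPM in vehicle (SD, n = 3 each). For SOCS3 the log2 fold changes were 3.79 ± 0.13 (SE; adjusted p = 1.98e-20), 4.64 ± 0.31 and 4.64 ± 0.31.

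SOCS1, which blocks the JAK kinase domain directly, had the fewest counts of the 9 genes in every group. It lies on chromosome 16 at 11254417 to 11256204, and its 3 libraries together held 105 counts in resistant 1 of batch 1 against 17 in vehicle. In batch 2 they held 216 counts in resistant 1 and 382 in resistant 2, against 7 in vehicle. By library the counts were 102, 54 and 60 in resistant 1 and 134, 54 and 194 in resistant 2, against 3, 2 and 2 in vehicle. The groups did not overlap, but the vehicle values rest on few reads and the fold changes are correspondingly loose. They were 2.63 ± 0.39 on the log2 scale (SE; adjusted p = 8.02e-07) in batch 1, and 4.81 ± 0.57 and 5.44 ± 0.55 in resistant 1 and resistant 2 of batch 2. JAK2, CISH, SOCS1 and SOCS2 each overlap a gene of the tables on the opposite strand (INSL6, MAPKAPK3, RMI2 and SOCS2-AS1), and with the strand setting unknown some reads of these partners may stand in their counts.

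**Figure D3:**
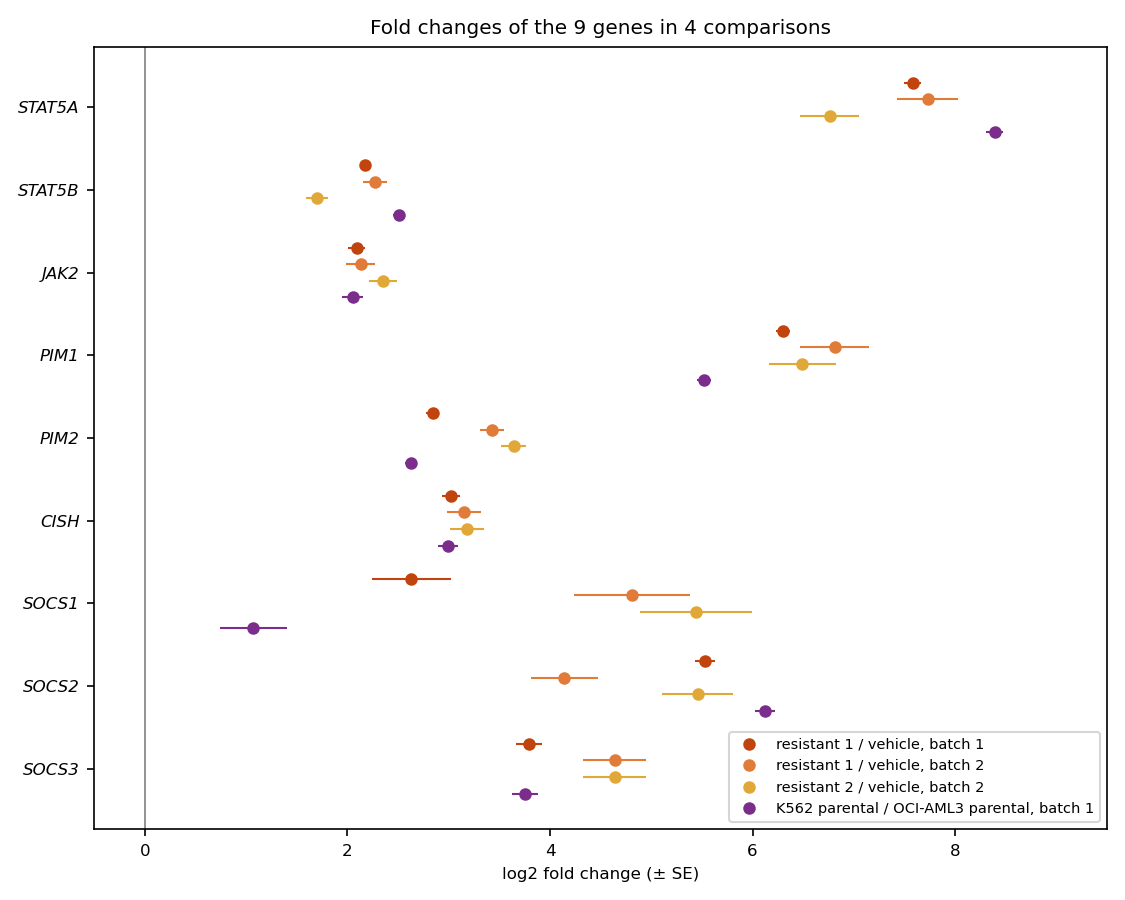
Log2 fold change with its standard error (edgeR, n = 3 per group) of the 9 genes in 4 comparisons. All points lie above 0, at 1.07 or more, and SOCS1 has the widest spread between the comparisons, with K562 the lowest.

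K562 against parental OCI-AML3 gave the same direction for all 9 genes as resistant against vehicle, in libraries that stood on neither side of those comparisons. Called higher were 9 of 9, where 42.6% of the 13883 genes tested were called higher, and 8 of 9 passed 4-fold, against 12.3% of all genes. No library of the pair overlapped for any of the 9, as for 85.4% of all genes. STAT5A had 544, 552 and 562.2 CPM in K562, against 1.93, 1.51 and 1.57 CPM in parental OCI-AML3, and a fold change of 8.39 ± 0.08 on the log2 scale (SE; adjusted p = 1.95e-25). SOCS2 gave 6.12 ± 0.1, PIM1 5.52 ± 0.07, SOCS3 3.75 ± 0.13 and CISH 2.99 ± 0.1 on the log2 scale. SOCS1 differed least, with 79 counts in K562 against 35 in parental OCI-AML3 and a log2 fold change of 1.07 ± 0.33 (adjusted p = 0.00534).

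Resistant 1 and K562, both of batch 1, were close for these genes but not equal. Called were 4 of 9, where 59.8% of the 13006 genes tested were called, and none differed by more than 1.52-fold in either direction. PIM1 was higher, at 551, 575 and 547 CPM in resistant 1 against 366, 366 and 369.6 CPM in K562, 0.6 ± 0.04 higher on the log2 scale (SE; adjusted p = 1.93e-11). STAT5A was lower, at 404, 429 and 399.9 CPM in resistant 1 against 544, 552 and 562.2 CPM in K562 (-0.43 ± 0.04, adjusted p = 8.08e-09). For both genes the groups were fully apart, as for 63% of all genes. SOCS2 was also lower, at 84.1 ± 1.46 CPM in resistant 1 against 112 ± 5.48 CPM in K562 (-0.41 ± 0.05, adjusted p = 3.38e-07). CISH was slightly higher, at 65.8 ± 3.78 CPM against 57.4 ± 3.12 CPM in K562 (0.2 ± 0.06, adjusted p = 0.00692). STAT5B did not pass, at 258 ± 2.04 CPM in resistant 1 and 258 ± 1.14 CPM in K562 (0.01 ± 0.04, adjusted p = 0.915). JAK2, PIM2, SOCS1 and SOCS3 did not pass either, with log2 fold changes of 0.1 ± 0.05, 0.05 ± 0.04, 0.3 ± 0.24 and -0.14 ± 0.07.

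**Figure D4:**
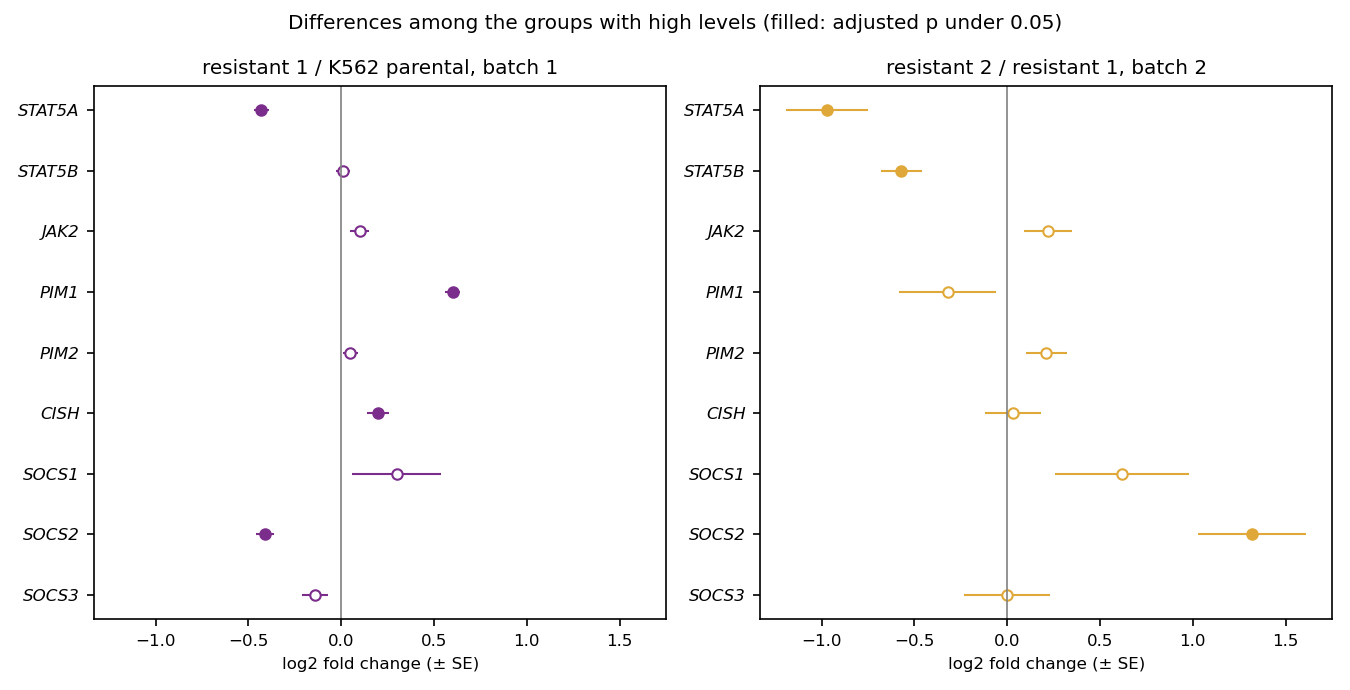
Log2 fold change with its standard error of the 9 genes between groups in which all are high, resistant 1 over K562 in batch 1 (left) and resistant 2 over resistant 1 in batch 2 (right). Filled points have an adjusted p under 0.05 in edgeR's quasi-likelihood test (n = 3 per group). All 9 lie within 1 log2 unit of 0 on the left, and on the right SOCS2, at 1.32, is the only point beyond it.

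The resistant biological replicates differed from each other in batch 2 for STAT5A, STAT5B and SOCS2. Called were 3 of 9, where 24.4% of 15218 genes were called. STAT5A was lower, with 161, 297 and 172 CPM in resistant 2 against 311, 426 and 497 CPM in resistant 1, or -0.97 ± 0.22 on the log2 scale (SE; adjusted p = 0.00666). STAT5B was lower as well, with 210.4, 227 and 219 CPM in resistant 2 against 330.3, 281 and 365 CPM in resistant 1 (-0.57 ± 0.11, adjusted p = 0.00206). SOCS2 was higher, with 481, 197 and 482 CPM in resistant 2 against 183, 137 and 145 CPM in resistant 1 (1.32 ± 0.29, adjusted p = 0.00835). The groups did not overlap for these 3 genes, nor for JAK2 and PIM2, as for 37.5% of all genes, though library 2 of resistant 2 came nearest to resistant 1 for both STAT5A and SOCS2. STAT3, the neighbour of STAT5A, was also lower, at 218 ± 52.8 CPM in resistant 2 against 381 ± 19.1 CPM in resistant 1 (-0.81 ± 0.14, adjusted p = 0.000934).

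The libraries numbered 2 of both resistant groups stood apart from the others of batch 2, with a standard deviation of log2 deviations from the group mean of 0.255 in resistant 2 and 0.226 in resistant 1, against 0.159 to 0.184 in the other 7. Without the 3 libraries numbered 2, an alternative added after seeing the data, 5 of the 9 genes were called between resistant 2 and resistant 1, and PIM1 (-0.52, adjusted p = 0.00103) and SOCS1 (0.81, adjusted p = 0.0392) joined the other 3. The same setting called 5630 of 15409 genes in all (36.5%), against 3706 of 15218 (24.4%) with every library, so nothing about the 9 is read from the added calls. With all libraries PIM1 gave -0.32 ± 0.26 (adjusted p = 0.409) and SOCS1 0.62 ± 0.36 (adjusted p = 0.233). JAK2, PIM2, CISH and SOCS3 were not called, with log2 fold changes of 0.22 ± 0.13, 0.21 ± 0.11, 0.03 ± 0.15 and 0 ± 0.23.

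Vehicle and parental OCI-AML3 were near each other for the 9 genes. STAT5B was the 1 gene called, where 37% of 14505 genes were called, with 64.2, 59.6 and 58.8 CPM in vehicle against 44.3, 49.2 and 45.3 CPM in parental cells (log2 fold change 0.37 ± 0.06 SE, adjusted p = 1.69e-05). SOCS1 had 1, 8 and 8 counts in vehicle against 8, 10 and 17 in parental libraries, and its log2 fold change of -1.23 ± 0.5 did not pass (adjusted p = 0.054). The other 7 had log2 fold changes between -0.16 (SOCS3) and 0.4 (STAT5A) and were not called.

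The difference between resistant 1 and vehicle was itself compared between batches with an interaction term, as batch 2 minus batch 1. For 3 of 9 genes it differed, where 33.2% of 15209 genes did. The SOCS2 difference was smaller in batch 2, by -1.41 ± 0.22 on the log2 scale (SE; adjusted p = 0.000105). Its vehicle level was 8.74 ± 1.34 CPM in batch 2 against 1.94 ± 0.417 CPM in batch 1, and its resistant 1 level was 155 ± 24.8 CPM in batch 2 against 84.1 ± 1.46 CPM in batch 1. The PIM2 difference was wider by 0.57 ± 0.11 (adjusted p = 0.000595) and that of SOCS1 by 2.13 ± 0.73 (adjusted p = 0.0326), where SOCS1 rests on the few vehicle counts given above. The SOCS1 call was lost in 9 of 12 leave-outs of 1 library. Batches differ in sequencing run and depth, and which of their features these differences go with was not tested. STAT5A, STAT5B, JAK2 and CISH gave 0.13 ± 0.27, 0.08 ± 0.12, 0.02 ± 0.15 and 0.12 ± 0.17, PIM1 gave 0.48 ± 0.42 and SOCS3 0.82 ± 0.37 (adjusted p = 0.103).

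Set side by side per kb of merged exons, the most abundant of the 9 in resistant 1 of batch 1 was PIM1 at 184 ± 5.04 CPM per kb, then STAT5A at 64.4 ± 2.48 and PIM2 at 61.1 ± 1.49 CPM per kb. STAT5B followed at 21.3 ± 0.17, SOCS2 at 13 ± 0.225, CISH at 13 ± 0.747, JAK2 at 9.84 ± 0.221, SOCS3 at 8.21 ± 0.567 and SOCS1 at 1.08 ± 0.196 CPM per kb. STAT5A and PIM2 differed by about their spread, and SOCS2 and CISH by less. The order was the same with the longest transcript as length, where SOCS2 came to 22.5 and CISH to 13 CPM per kb. In vehicle of batch 1 PIM2 led, at 9.04 ± 0.291 CPM per kb, ahead of STAT5B at 5.03 ± 0.242, PIM1 at 2.46 ± 0.312 and JAK2 at 2.45 ± 0.173 CPM per kb, and STAT5A was near the bottom at 0.357 ± 0.0597 CPM per kb. Across all 7 groups, each of the 9 genes had its 4 highest mean levels in the 3 resistant groups and K562. Levels were scaled within each batch, so orders across batches are a description. Among these 4 groups the order differed by gene. K562 was highest for STAT5A (552 ± 9.37 CPM) and SOCS3 (24.7 ± 0.494 CPM) and lowest for JAK2, PIM1, PIM2 and SOCS1. Resistant 2 was highest for JAK2 (101 ± 7.72 CPM), PIM2 (231 ± 22.8 CPM), SOCS1 (2.73 ± 1.47 CPM) and SOCS2 (387 ± 164 CPM). Neighbouring groups in the order overlapped in their libraries for STAT5A between resistant 1 of both batches, for STAT5B between resistant 1 of batch 1 and K562, and for CISH, SOCS3 and PIM1 between resistant 2 and resistant 1 of batch 2. They also overlapped for JAK2 between resistant 1 of both batches and K562, for PIM2 between resistant 1 of batch 1 and K562, and for SOCS1 among all 4.

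As a description, the genes whose log2 levels followed each of the 9 most closely over the 21 libraries were EPCAM and MACC1 for STAT5A, NAA11 and FAM83A for PIM1 (Pearson r 0.998 for each), and CMBL (0.997) and BCL2L1 (0.996) for PIM2. BCL2L1 encodes the survival protein BCL-XL, itself a known STAT5 target. STAT5B was nearest to CYSTM1 and EPB41, JAK2 to VCL and ANGPT1, and CISH to HIC2 and FLNC, all at 0.993. SOCS3 was nearest to PPM1F (0.992) and DGCR2 (0.991), and SOCS2 to CNOT10 and GORASP2 (0.99 each). The libraries share batches and fall into 2 sets of profiles, and 1221 to 1491 genes had an r over 0.9 with each of these 8, so such an r is common here. SOCS1 had 48 such genes, with C6ORF47 (0.943) and LBX2-AS1 (0.936) at the top.

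The other pathway lists held genes called in both directions. Over all genes tested, 44% were called higher and 42.1% lower in resistant 1 of batch 1. In batch 2, 39.9% were called higher and 35.8% lower in resistant 1, and 40.2% higher and 35.9% lower in resistant 2. Nothing particular to a list is read from its counts against these shares. Of 8 other JAK and STAT genes, 7 were tested in resistant 1 of batch 1, where 2 were called higher and 5 lower, with a median log2 fold change of -0.23. STAT3, given above, and STAT2 (0.29 ± 0.06), an interferon signal transducer, were higher. In batch 2 STAT2 was called higher in resistant 1 (0.66 ± 0.12) but not in resistant 2 (-0.02 ± 0.12, adjusted p = 0.907). STAT6, which carries interleukin-4 signals, was lower at 44.5 ± 1.67 CPM in resistant 1 against 311 ± 8.66 CPM in vehicle (-2.72 ± 0.05 SE, adjusted p = 3.26e-26). In batch 2, of 8 tested, resistant 1 had 2 higher and 3 lower, and resistant 2 had 1 higher and 4 lower.

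A further list held 16 other SOCS, PIAS, phosphatase and adaptor regulators of the pathway. Of these, 4 were higher and 8 lower in resistant 1 of batch 1, with a median of -0.29. Over all genes, 44% were higher and 42.1% lower there. PTPN6, which encodes the blood-cell phosphatase SHP-1 that dephosphorylates JAK kinases, was lower at 4.07 ± 1.05 CPM in resistant 1 against 623 ± 15.7 CPM in vehicle (-7.16 ± 0.09 SE, adjusted p = 1.61e-29). In batch 2 it had 3.45 ± 0.623 CPM in resistant 1 and 0.763 ± 0.313 CPM in resistant 2, against 510 ± 39.2 CPM in vehicle. PTPN6 was thus low in every resistant group and high in every vehicle group. PTPN1, a phosphatase that acts on JAK2 and TYK2, was higher at 170 ± 4.68 CPM in resistant 1 against 71 ± 1.7 CPM in vehicle (1.34 ± 0.05), and in batch 2 by 0.93 ± 0.11 in resistant 1 and 0.76 ± 0.11 in resistant 2. PTPN11, which encodes the phosphatase SHP-2, was called higher in batch 1 (0.4 ± 0.06) but not in batch 2, at 0 ± 0.12 in resistant 1 (adjusted p = 0.976) and 0.05 ± 0.12 in resistant 2 (adjusted p = 0.723), and its batch difference was -0.43 ± 0.12 (adjusted p = 0.00854). PTPRC, the surface phosphatase CD45, was lower in each (-0.94 ± 0.06 in batch 1, and -1.04 ± 0.13 in resistant 1 and -0.68 ± 0.13 in resistant 2 of batch 2). Batch 2 gave 2 higher and 7 lower in resistant 1, and 2 higher and 9 lower in resistant 2.

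Of 15 receptor genes that signal through JAK kinases to STAT5, 8 were tested in batch 1, with 3 higher and 5 lower in resistant 1, against 44% and 42.1% of all genes. LEPR, the leptin receptor, was higher at 151 ± 9.22 CPM in resistant 1 against 7.11 ± 1.47 CPM in vehicle (4.48 ± 0.09 SE, adjusted p = 9.26e-25). IL2RG, the common gamma chain, did not keep a direction. It was higher in batch 1, at 16.8 ± 0.705 CPM in resistant 1 against 5.06 ± 0.423 CPM in vehicle (1.8 ± 0.13). In batch 2 it had 13.1 ± 2.98 CPM in resistant 1 (0.12 ± 0.23, adjusted p = 0.657) and was lower in resistant 2 at 5.73 ± 1.31 CPM (-1.07 ± 0.24, adjusted p = 0.000853), against 12 ± 3.26 CPM in vehicle, and its batch difference was -1.7 ± 0.27 (adjusted p = 0.000134). CSF3R, the granulocyte colony-stimulating factor receptor, was lower at 0.236 ± 0.0337 CPM in resistant 1 against 74 ± 2.46 CPM in vehicle (-8.15 ± 0.14). GHR, the growth hormone receptor, had 3 counts in resistant 1 against 320 in vehicle, a ratio of vehicle over resistant 1 of 110.9 with an exact 95% counting interval of 37.62 to 540.8. In batch 2, of 10 tested, 4 were higher and 4 lower in resistant 1, and 4 higher and 6 lower in resistant 2, and EPOR, the erythropoietin receptor, gave 1.13 ± 0.19 and 1 ± 0.19. PRLR, the prolactin receptor, had 0 counts in both, against 1029 in vehicle, which makes it at least 355.8-fold lower in resistant 1 and at least 405.7-fold lower in resistant 2, against 3 counts over the group. CSF2RA, IL3RA and CRLF2 had 0 counts in all libraries, and the annotation places each on both X and Y, so a count of 0 says nothing of their expression.

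Of 18 other known STAT5 target genes, 7 were higher and 9 lower in resistant 1 of batch 1, against 44% and 42.1% of all genes, with a median of -0.19. CCND2, which encodes cyclin D2, was higher at 137 ± 4.1 CPM in resistant 1 against 0.137 ± 0.0753 CPM in vehicle (10.01 ± 0.14 SE, adjusted p = 3.63e-29). CD69, an activation marker of lymphocytes, had 490 counts in resistant 1 against 0 in vehicle and was at least 157-fold higher, against 3 counts over the group. DUSP6, a phosphatase of ERK, was lower at 0.237 ± 0.214 CPM in resistant 1 against 14.7 ± 0.827 CPM in vehicle (-5.83 ± 0.22), and FOS, an immediate early gene, at 1.84 ± 0.508 CPM against 39.3 ± 3 CPM in vehicle (-4.29 ± 0.12). In batch 2 the counts were 6 higher and 7 lower in resistant 1 and 6 higher and 9 lower in resistant 2, and MYC was lower by -1.35 ± 0.12 and -1.22 ± 0.12. K562 against parental OCI-AML3 gave 7 higher and 10 lower in this list, and 3 higher and 5 lower of 8 receptors. It gave 3 higher and 7 lower of the 16 SOCS, PIAS, phosphatase and adaptor genes. Of 7 other JAK and STAT genes, 2 were higher and 5 lower. Over all genes, 42.6% were called higher and 42.5% lower.

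**Figure D5:**
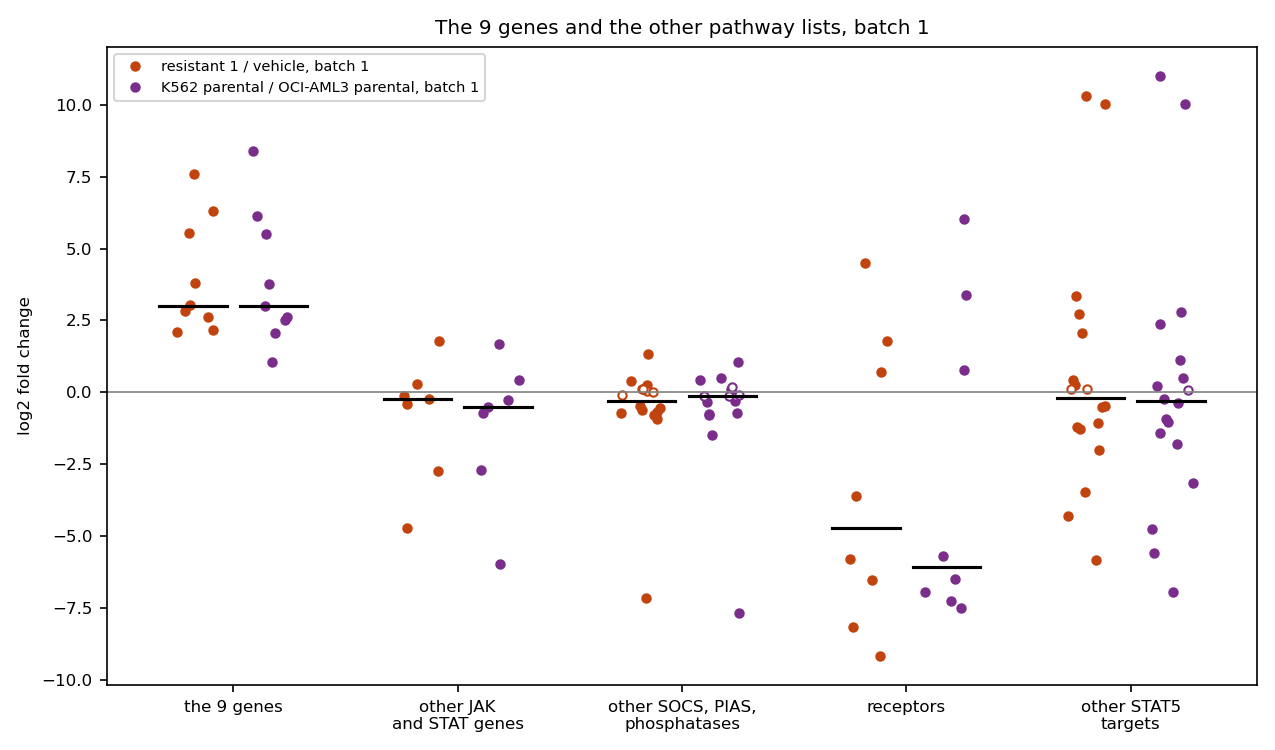
Log2 fold changes in batch 1 (edgeR) of the 9 genes and of the genes of 4 other pathway lists that could be tested, for resistant 1 over vehicle and for K562 over parental OCI-AML3. Each point is a gene, filled if its adjusted p is under 0.05, and bars are medians. The 9 genes all lie above 0 with medians of 3.02 and 2.99, while the other lists spread to both sides of 0. The fitted values of genes with 0 or few counts in a group, such as CD69 and PRLR, depend on the prior count.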

How the data were processed

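The authors deposited 1 table of raw gene counts per sequencing batch, with gene symbols as rows. Per the series' design text, RNA from a Qiagen kit was made into strand-specific mRNA libraries that were sequenced as read pairs on an Illumina NovaSeq6000, reads were aligned to hg38 and counts were obtained within the VIPER workflow. Per the submitters' processing notes, differential expression used DESeq2 1.22.1, whose results are not used here. The sources used here do not give the aligner version, the annotation or the strand setting of the counting. All 21 columns were matched to samples by name, and 0 were left without one. The label of 1 vehicle library of batch 2 runs its number together with another word, and its library name gave replicate 1.

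From the deposited counts, edgeR 4.0.16 in R 4.3.3 was fitted to whole tables with TMM factors (0.896 to 1.111), the filterByExpr filter, group means and robust quasi-likelihood F tests (two-sided), adjusted by Benjamini-Hochberg over all genes tested. All 9 genes passed the filter in every fit. The 3 OCI-AML3 groups of batch 1 shared a fit, as did the 3 groups of batch 2, and comparisons with K562 used the 6 libraries compared. CPM are relative to TMM-scaled library sizes within a batch, and SE is the log2 fold change divided by the square root of F. Values per kb use merged exons of GENCODE annotation of hg38, which also gave coordinates. Whether it is the annotation the authors counted on was not stated.

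The 9 genes and the lists were chosen with earlier results of these data known. Named from each list were the called genes averaging at least 5 CPM in the higher group that rose most (up to 2) and fell most (up to 2). 1 gene that this rule names is not reported here. Nearest genes by Pearson's r took log2 levels with 1 added to the CPM and the 10784 genes with a mean of at least 5 CPM. Promoter windows came from the RefSeq table of GRCh38.p14, 250 bases before to 50 after each start, which had none for SOCS2. The fits were tested on counts simulated with a fixed spread and few changed genes, balanced in direction. In these data most genes were called between resistant and vehicle, so that check says nothing of error control here. No replicate pair of the 21 had identical or indistinguishable counts (chi-square per degree of freedom 1.81 to 84.5). Library size limits precision most for SOCS1, and bounds and intervals on counts cover counting error only.

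In batch 2, same-numbered libraries deviated together from their group means in resistant 1 against vehicle (correlations 0.13 to 0.19). The same held in resistant 2 against resistant 1 (0.14 to 0.34). In each other comparison at least 1 of the correlations was below 0.1. This likeness comes from the data and not from a label. The reported fits had no replicate term in any comparison, so their SE and adjusted p leave it out. A replicate block was run only as an alternative. Alternatives were DESeq2 1.42.0, RLE factors, no low-count filter, a replicate block, other groups in the fit, each library left out in turn and, for lengths, the longest transcript. Plain library sizes and the batch 2 libraries numbered 2 left out together were added after seeing the data.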

Additional observations from a re-analysis of the deposited data

Results flagged for a closer look

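The difference between resistant 1 and vehicle libraries was not the same in the 2 batches for 3 of the 9 genes, by edgeR's interaction test adjusted over all 15209 genes, of which 33.2% passed. PIM2 had a log2 fold change of 3.43 ± 0.12 in batch 2 and 2.84 ± 0.06 in batch 1 (SE), and the interaction was 0.57 ± 0.11 (adjusted p = 0.000595). SOCS1 had 4.81 ± 0.57 in batch 2 and 2.63 ± 0.39 in batch 1, with an interaction of 2.13 ± 0.73 (adjusted p = 0.0326), on 7 vehicle counts in batch 2 and 17 in batch 1. Leaving out 1 library at a time gave SOCS1 interactions of 1.67 to 2.63 with adjusted p from 0.00508 to 0.139. SOCS2 had 4.14 ± 0.33 in batch 2 and 5.53 ± 0.1 in batch 1, with an interaction of -1.41 ± 0.22 (adjusted p = 0.000105). For SOCS2 the vehicle libraries were higher in batch 2, at 8.39, 7.60 and 10.2 CPM, than in batch 1, at 1.46, 2.08 and 2.26 CPM, without overlap.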

How the results depend on the processing

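The log2 fold changes of the 9 genes were recomputed 1079 times under the alternatives. On the threshold, 1049 kept their side, 21 came to pass it and 9 no longer passed it. No value that was called changed sign, but 29 of the 1079 did, all of them uncalled and none passing after the change, for main values of 0.13 or less in size. Between resistant 2 and resistant 1, SOCS3 (0) came to 0 by DESeq2, RLE scaling and no low-count filter, 0.01 with the replicate block, 0.09 with plain library sizes and 0.19 without the libraries numbered 2. With 1 library left out, SOCS3 ran from -0.21 to 0.24 and CISH from -0.05 to 0.18 there. For the batch difference the same ranges were -0.04 to 0.21 for CISH, -0.11 to 0.16 for JAK2, -0.03 to 0.29 for STAT5A and -0.01 to 0.17 for STAT5B, and JAK2 gave -0.01 with no low-count filter. In resistant 1 against K562, STAT5B (0.01) gave -0.01 by DESeq2, RLE scaling, all groups of the batch in the fit and no low-count filter, and -0.01 to 0.01 with 1 library left out. All 9 were called higher in each comparison of resistant with vehicle and of K562 with parental OCI-AML3 under every alternative run. The 9 lost calls were all the SOCS1 batch difference, in 9 of 12 leave-outs. Between resistant 2 and resistant 1, 3706 genes were called, and 2323 to 4814 with 1 library left out: 2467 without resistant 1 library 1, 2323 without its library 3, 2387 without resistant 2 library 1 and 2431 without its library 3. Leaving out the batch 2 libraries numbered 2 gave 5630 genes (36.5%, against 24.4%), and 5 of the 9 genes there, against 3. For the batch difference it also called 5 of the 9, against 3. PIM1 (0.92, adjusted p = 7.9e-06) and STAT5B (0.24, adjusted p = 0.0355) were added, where the share of all genes called was 40.3%, against 33.2%. Nothing about the 9 is read from these added calls. Without resistant 1 library 2 alone, PIM1 gave -0.62 (adjusted p = 0.00424) between resistant 2 and resistant 1 and 0.79 (adjusted p = 7.2e-05) for the batch difference. Without resistant 2 library 2, SOCS1 gave 0.97 (adjusted p = 0.018) between the resistant groups. SOCS3 passed for the batch difference by DESeq2 (0.89, adjusted p = 0.0452) and without library 1 of resistant 1 (1.02) or of vehicle (1.19) of batch 2. The causes were not tested.

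Between vehicle and parental cells 1 of the 9 was called, 2 with no low-count filter, 2 with the replicate block and 1 to 3 with 1 library left out (3 without parental library 2, with JAK2 at 0.24, and 2 without parental library 1 or vehicle library 3). The replicate block put SOCS1 at -1.24 (adjusted p = 0.0488) there and changed no other call of the 9. Leaving out 1 library changed the members called by 1 at most in the other comparisons. Against K562, JAK2 passed without K562 library 2 (0.14) and SOCS3 without resistant 1 library 2 (-0.2). Plain library sizes moved the median of all genes by 0.19, 0.28 and 0.15 on the log2 scale in resistant 1 and resistant 2 against vehicle of batch 2 and in the batch difference. They changed the share of higher genes among those called to 65.1%, against 51%, between resistant 2 and resistant 1. Against vehicle of batch 2 they changed it to 60.4%, against 52.8%, in resistant 1 and to 63.5%, against 52.9%, in resistant 2. It became 62.8%, against 52.3%, in resistant 1 against K562 and 65.6%, against 45.1%, for the batch difference. RLE scaling and DESeq2 also moved this share for the batch difference, to 53.1% and 52.6%. In vehicle against parental cells they gave 54.5% and 55.3%, against 50.5%. Under plain library sizes JAK2 (0.16) and PIM2 (0.11) passed in resistant 1 against K562, and PIM2 (0.31) between the resistant groups. With the longest transcript as length, 37 of 63 levels per kb moved by more than 1 SD and 26 did not. Depth limits SOCS1 most, with 7 counts in vehicle of batch 2.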

Other observations

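Within the libraries that share high levels of the 9 genes, some other genes of the pathway lists differed. CSF2RB, the common beta chain of the interleukin-3 family receptors, had 3.08 ± 0.892 CPM in resistant 2 against 34.3 ± 8.57 CPM in resistant 1 of batch 2 (SD, n = 3 each; log2 fold change -3.48 ± 0.23 SE, adjusted p = 2.69e-07), and resistant 1 of batch 2 was near its vehicle libraries at 40 ± 4.02 CPM (-0.23 ± 0.2, adjusted p = 0.296). In batch 1, resistant 1 had 4.11 ± 0.807 CPM against 53.1 ± 1.71 CPM in vehicle (-3.61 ± 0.1, adjusted p = 1.74e-22). The difference between resistant 1 and vehicle was 3.36 ± 0.23 higher in batch 2 than in batch 1 on the log2 scale (interaction test, adjusted p = 3.29e-08), and vehicle libraries were high in both batches.

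CCND1, which encodes cyclin D1, was higher in resistant 2, at 105 ± 12.2 CPM against 32.6 ± 5.96 CPM in resistant 1 of batch 2 (1.68 ± 0.14, adjusted p = 1.83e-06), and in resistant 1 of batch 1, at 61.1 ± 1.55 CPM against 25.9 ± 1.85 CPM in K562 (1.24 ± 0.06, adjusted p = 4.98e-13). CDKN1A, the cell cycle inhibitor p21, was higher in both as well, at 58.3 ± 12.2 CPM in resistant 2 against 17.8 ± 3.59 CPM in resistant 1 and at 10.5 ± 0.484 CPM in resistant 1 against 7.04 ± 0.627 CPM in K562. LEPR was higher in resistant 2 (0.59 ± 0.14, adjusted p = 0.00847) and lower in resistant 1 than in K562 (-0.79 ± 0.05, adjusted p = 4.94e-11). Of the 18 other STAT5 targets, 3 were higher and 1 lower in resistant 2 against resistant 1, where 24.4% of all genes were called, and 4 higher and 7 lower of 16 tested in resistant 1 against K562, where 59.8% were.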
